A study of Mus musculus with 10 samples.

Results

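The 32 genes described here build cholesterol, control that synthesis, take sterols up and store them, or export them. They were named by function, as mouse symbols matched to the Ensembl identifiers of the count table. All 32 were among its 22731 genes, and all 32 were among the 16344 genes that were tested. They comprise 19 synthesis enzymes, 5 regulators of the sterol regulatory element-binding proteins (SREBPs), 3 genes of uptake, carriage and storage, and 5 genes of the liver X receptors (LXRs) and efflux.

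Expression was measured by bulk RNA sequencing of mouse fibroblasts of C57B6 genotype, in a series whose title concerns a Pi16+ progenitor niche in the pancreas. There were 3 libraries of fibroblasts cocultured with group 2 innate lymphoid cells (ILC2s) lacking IL-13 (IL13KO cocultures), 3 of fibroblasts cocultured with wild-type ILC2s (WT cocultures), and 4 of fibroblasts cultured alone (monocultures). ILC2s are lymphocytes without antigen receptors that secrete IL-5 and IL-13. The starting fibroblasts were sorted as live cells without CD45, Epcam and CD31 and with Pdpn and Pdgfra, and the ILC2s as lineage-negative cells carrying KLRG1. The design text describes the cells sorted when coculture ended as CD45+ with Pdpn and Pdgfra, although CD45 marks leukocytes. The labels give no age, time in culture, animal or day for a library, so p-values measure the spread between these libraries, which may be technical.

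Cholesterol is made from acetyl-CoA through mevalonate, farnesyl pyrophosphate, squalene and lanosterol. When membrane sterol is low, Scap carries the SREBPs out of the endoplasmic reticulum, where Insig proteins otherwise hold them, and the cleaved factors switch on synthesis and uptake genes. When oxysterols accumulate, the LXRs switch on exporters, apolipoprotein E and the ligase Mylip, so the SREBP and LXR arms are known to act in opposite directions on cell sterol.

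Total counts were 17277432 to 17661229 with IL13KO ILC2s, 18801744 to 22087459 with WT ILC2s and 10710410 to 14366199 in monoculture. Every member had at least 47 reads in every library. Levels are CPM, reads scaled to a common library total after TMM normalisation. Libraries are listed as IL13KO cocultures 1, 2 and 3, WT cocultures 1, 3 and 4 as numbered in the count table, and monocultures 1 to 4. Group values are means ± SD over 3 IL13KO cocultures, 3 WT cocultures and 4 monocultures. Il13 reads numbered 0 in each IL13KO coculture, against 30, 120 and 121 in the WT libraries and 0 in every monoculture. All 9 fibroblast markers were present, with a summed level of 22040.0 to 27330.0 CPM in the IL13KO cocultures, 11230.0 to 15720.0 CPM in the WT cocultures and 7394 to 10150.0 CPM in the monocultures. Single markers did not all follow that sum. Against monoculture 6 were called higher and 2 lower in the IL13KO cocultures, and 5 higher and 2 lower in the WT cocultures. Dcn averaged 1650 CPM in the IL13KO cocultures, 369 CPM in the WT cocultures and 2532 CPM in the monocultures. Lum averaged 234.5, 49.05 and 634.6 CPM in the same order. Ptprc, which encodes CD45, had at most 1 read in an IL13KO coculture, 3, 6 or 9 in a WT coculture and 0 in a monoculture. The 9 ILC2 markers in the table, mostly Il1rl1, summed to 17.9 to 30.9 CPM in the IL13KO cocultures, 1219 to 1473 CPM in the WT cocultures and 6.09 to 10.9 CPM in the monocultures. In the WT cocultures Il1rl1 alone averaged 1298 CPM, beside 12.4 CPM for Il5, 5.01 CPM for Gata3, 4.67 CPM for Il13 and 0.282 CPM for Klrg1. The part of ILC2s in the values below was not tested. Fold changes against monoculture also moved with GC content and transcript length. When both trends were removed within each library (GC correction below), called genes were 2955 higher and 5113 lower in the IL13KO cocultures, against 4926 higher and 4448 lower without the correction. They were 3960 higher and 5713 lower in the WT cocultures against monoculture, and 5353 higher and 4852 lower without it. After it, the median log2 fold change of all genes was -0.17 and -0.15 in those comparisons and -0.021 between the cocultures. GC-corrected values of members are given beside the uncorrected ones where the call or direction changed or the ratio of the groups moved by over 1.5-fold, and are read against these medians. A reversal or turned sign below is a change of sign about 0 and not about these medians.

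Both cocultures had higher Srebf1, Srebf2, Scap, Lss, Dhcr7 and Lbr and lower Apoe, Abcg1 and Insig2 than monoculture, and the cocultures differed most in Apoe and the LXR gene Nr1h3. Calls were made at 0.05 on p-values from edgeR's quasi-likelihood test, adjusted by Benjamini-Hochberg over all tested genes, the source of every adjusted p below. In the IL13KO cocultures against monoculture, 10 of 32 members were higher and 13 lower, where 30.1% of all tested genes were called higher and 27.2% lower. The WT cocultures had 13 members higher and 12 lower than monoculture, where 32.8% of all genes were called higher and 29.7% lower. Between IL13KO and WT cocultures, 7 members were higher and 7 lower, where 11.7% of all genes were called in each direction. A fit of those 2 groups alone called 11 members lower, adding Acat2, Mvk, Lss and Ebp, and also called Nr1h2 and Abcg1 higher, where it called 18.3% of all genes higher and 18.1% lower. After GC correction, 6 members were higher and 17 lower in the IL13KO cocultures than in monoculture, where 18.1% of all genes were higher and 31.4% lower. In the WT cocultures 10 were then higher and 13 lower than in monoculture, where 24.3% of all genes were higher and 35.1% lower. Between IL13KO and WT cocultures 6 were then higher and 10 lower, where 12.4% of all genes were higher and 13.7% lower. The library groups did not overlap for 22 of 32 members in the IL13KO cocultures against monoculture, where 59.2% of all tested genes did not overlap. They did not overlap for 24 members in the WT cocultures against monoculture, beside 60.9% of all genes, and for 23 between the cocultures, beside 49% of all genes. In these bulk samples, fewer cells of a type and less RNA per cell cannot be told apart.

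**Figure D1:**
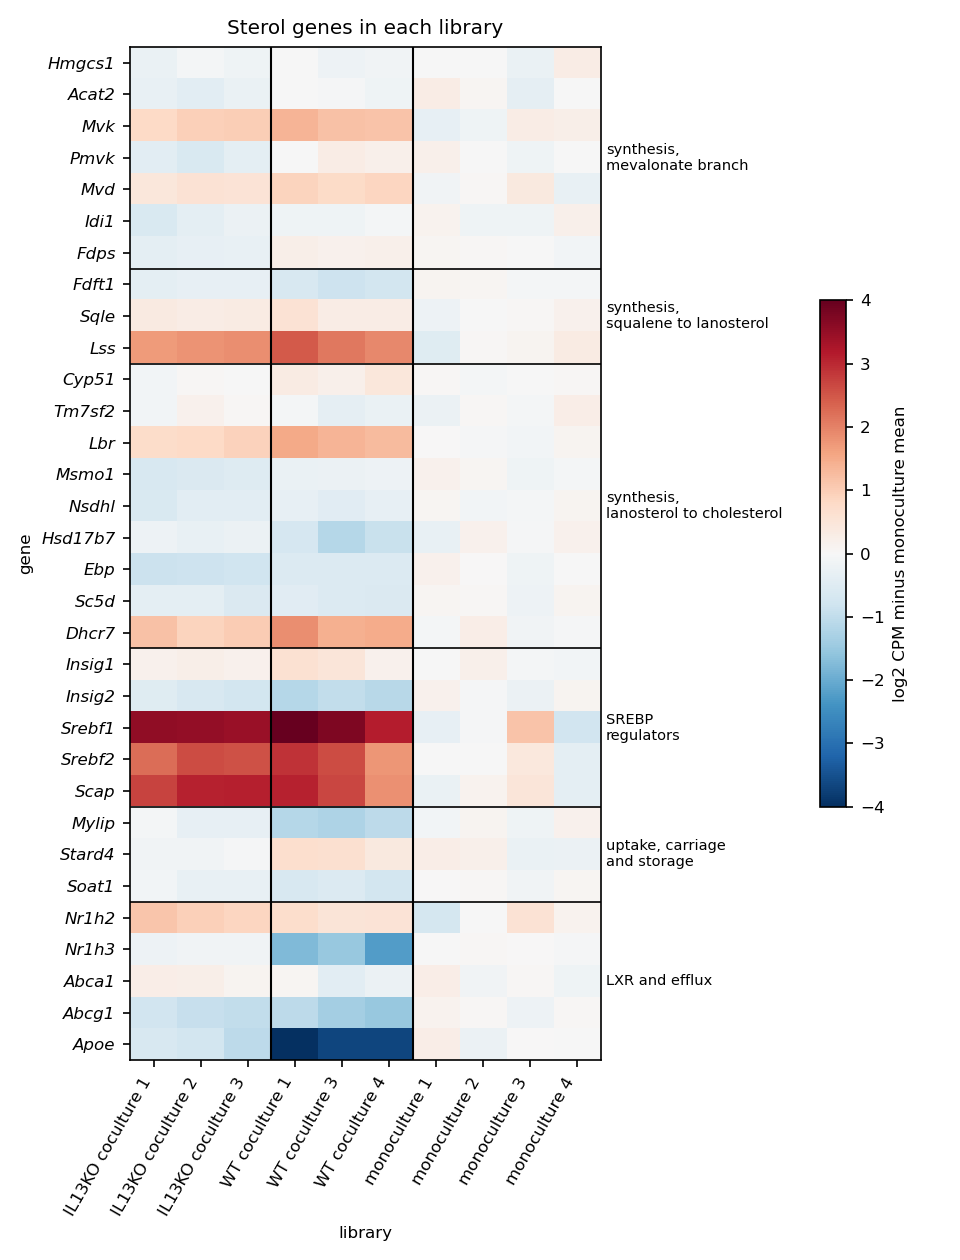
Each row is a member gene and each column a library, with IL13KO cocultures left, WT cocultures in the middle and monocultures right. Colour gives log2 CPM minus the mean of the monocultures, with red above it and blue below. Srebf1, Srebf2 and Scap were the reddest rows in both cocultures, and Apoe was darkest blue in the WT cocultures.

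The gene starts of the arms were compared for short promoter motifs. RefSeq windows from 250 bases before to 50 bases after a start were held for 27 members on GRCm38.p6. Fdft1, Sqle, Fdps, Stard4 and Abcg1 had none. The CCAAT box of the factor NF-Y, searched on both strands, stood in a window of 15 of 16 synthesis enzymes, of 4 of 5 SREBP regulators and of 0 of 4 LXR and efflux genes. The share was 43.2% among tested genes with a window and 41.1% among all 27025 genes. The enzyme without it was Acat2, and the regulator without it was Scap. The Sp1 box, GGGCGG, stood in 15 of 16, in 5 of 5 and in 1 of 4, the last being Abca1, against 67.5% of tested genes. A sterol element, TCACNCCAC on either strand, was present in Hmgcs1 and in 1.40% of tested genes. In Hmgcs1 it began 137 bases before the RefSeq start, which lies upstream of the annotated gene start given below. The LXR repeat, AGGTCA and again AGGTCA after 4 bases with up to 1 mismatch per copy, was found in 0 of the 27 members and in 1.72% of tested genes. A gene was counted when any of its windows held the letters, and a match describes letters and not a bound site. Variants of the sterol element and of the LXR repeat with other letters were not searched, nor were bases outside the windows. A missing match therefore does not show that a gene lacks such an element.

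Promoters of 4 enzymes are printed 5′ to 3′ along the gene, followed by those of the genes of the other arm that separated the cocultures most. Capitals mark CCAAT in either direction and, in Hmgcs1, the sterol element TCACCCCAC.
Hmgcs1 (chr13:119690101-119690400, plus strand): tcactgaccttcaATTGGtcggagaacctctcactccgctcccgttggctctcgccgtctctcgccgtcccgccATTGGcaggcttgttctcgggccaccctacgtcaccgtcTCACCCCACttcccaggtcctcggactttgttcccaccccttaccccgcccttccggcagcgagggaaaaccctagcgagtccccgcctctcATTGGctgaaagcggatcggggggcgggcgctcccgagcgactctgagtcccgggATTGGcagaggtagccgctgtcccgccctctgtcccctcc
Mvk (chr5:114444019-114444318, plus strand): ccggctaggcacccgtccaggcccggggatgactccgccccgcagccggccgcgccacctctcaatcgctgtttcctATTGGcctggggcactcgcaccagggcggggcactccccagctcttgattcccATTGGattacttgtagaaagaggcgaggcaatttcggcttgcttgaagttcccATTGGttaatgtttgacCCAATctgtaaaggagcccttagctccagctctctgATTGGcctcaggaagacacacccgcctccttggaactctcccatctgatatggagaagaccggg
Lss (chr10:76531355-76531654, plus strand): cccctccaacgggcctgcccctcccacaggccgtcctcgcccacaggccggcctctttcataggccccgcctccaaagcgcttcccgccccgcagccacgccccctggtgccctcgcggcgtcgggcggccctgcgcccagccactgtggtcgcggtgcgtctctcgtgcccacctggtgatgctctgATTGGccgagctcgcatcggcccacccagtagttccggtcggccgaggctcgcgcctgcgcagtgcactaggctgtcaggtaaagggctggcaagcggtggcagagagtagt
Lbr (chr1:181842352-181842651, minus strand): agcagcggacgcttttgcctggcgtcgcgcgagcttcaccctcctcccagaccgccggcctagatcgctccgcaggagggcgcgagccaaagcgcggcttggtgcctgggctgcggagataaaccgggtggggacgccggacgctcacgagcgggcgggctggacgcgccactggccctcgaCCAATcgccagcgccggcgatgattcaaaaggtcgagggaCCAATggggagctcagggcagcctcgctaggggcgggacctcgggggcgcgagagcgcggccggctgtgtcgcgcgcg
Apoe (chr7:19699139-19699438, minus strand): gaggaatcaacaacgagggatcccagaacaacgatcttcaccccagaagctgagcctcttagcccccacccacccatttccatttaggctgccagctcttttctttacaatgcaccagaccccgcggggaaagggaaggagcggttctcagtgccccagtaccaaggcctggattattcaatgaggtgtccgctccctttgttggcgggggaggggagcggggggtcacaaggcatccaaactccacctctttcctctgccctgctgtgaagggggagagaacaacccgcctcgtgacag
Nr1h3 (chr2:91195067-91195366, minus strand): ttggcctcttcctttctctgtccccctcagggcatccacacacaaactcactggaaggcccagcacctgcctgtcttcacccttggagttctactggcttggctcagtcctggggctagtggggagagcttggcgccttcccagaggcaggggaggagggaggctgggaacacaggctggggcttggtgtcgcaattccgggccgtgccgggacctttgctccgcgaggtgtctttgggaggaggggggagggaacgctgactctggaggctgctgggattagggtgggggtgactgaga
The enzyme windows carry 4 boxes in Hmgcs1, 5 in Mvk, 1 in Lss and 2 in Lbr. Apoe has 3 windows and Nr1h3 has 2, none of which holds a CCAAT box, and the window shown is the most upstream one held for each. The annotated Nr1h3 gene, on the minus strand, begins further upstream, at 91202834.

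Within the mevalonate branch the enzymes did not move together. Hmgcs1 (ENSMUSG00000093930, chromosome 13, 119690379 to 119708260 on GRCm38.p6) encodes the cytosolic synthase that makes HMG-CoA. Its level was 137, 154 and 147 CPM in the IL13KO cocultures, 162, 142 and 148 CPM in the WT cocultures and 161, 163, 138 and 199.9 CPM in the monocultures. All 3 groups overlapped. Its log2 fold change was -0.18 ± 0.12 in the IL13KO cocultures against monoculture (adjusted p = 0.192), -0.14 ± 0.11 in the WT cocultures (adjusted p = 0.311) and -0.044 ± 0.12 between IL13KO and WT cocultures (adjusted p = 0.837). The IL13KO difference from monoculture passed without monoculture 3 (adjusted p = 0.0421) and under upper-quartile scaling (adjusted p = 0.0435). GC correction turned the sign in the WT cocultures against monoculture, to 0.033, still uncalled.

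Mvk (ENSMUSG00000041939, chromosome 5, 114444269 to 114460591), the kinase of mevalonate, had 33.9, 37.9 and 39.01 CPM in the IL13KO cocultures, 49.95, 43.8 and 43.3 CPM in the WT cocultures and 15.5, 17.4, 23.9 and 22.8 CPM in the monocultures. Every coculture library was above every monoculture, and every WT coculture was above every IL13KO coculture. Its log2 fold change against monoculture was 0.89 ± 0.15 in the IL13KO cocultures (adjusted p = 0.000265) and 1.20 ± 0.15 in the WT cocultures (adjusted p = 1.73e-05). After GC correction these were -0.033 (adjusted p = 0.825) and 0.38 (adjusted p = 0.00809). Mvk transcripts hold 56.3% GC. Mvd, the decarboxylase that closes the mevalonate steps, averaged 21.02 ± 0.983 CPM in the IL13KO cocultures, 25.8 ± 1.24 CPM in the WT cocultures and 14.7 ± 3.04 CPM in the monocultures. It rose in both cocultures against monoculture, but GC correction left log2 fold changes of -0.38, a reversal, in the IL13KO cocultures and 0.033 in the WT cocultures. Between the cocultures, neither Mvk nor Mvd passed (adjusted p = 0.184 and 0.217). Both passed as lower in the IL13KO cocultures after GC correction, with adjusted p = 0.0159 and 0.0486.

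Pmvk and Fdps separated the cocultures. Pmvk phosphorylates phosphomevalonate and averaged 19.8 ± 1.55 CPM in the IL13KO cocultures, 30.4 ± 3.401 CPM in the WT cocultures and 27.4 ± 3.07 CPM in the monocultures. Fdps, which makes farnesyl pyrophosphate, averaged 34.03 ± 1.36 CPM in the IL13KO cocultures, 50.0 ± 1.02 CPM in the WT cocultures and 43.1 ± 2.07 CPM in the monocultures. Both were lower in the IL13KO cocultures than in the WT cocultures without overlap, with log2 fold changes of -0.62 ± 0.14 for Pmvk (adjusted p = 0.00667) and -0.56 ± 0.098 for Fdps (adjusted p = 0.00135). Both were also called lower in the IL13KO cocultures than in monoculture, with log2 fold changes of -0.47 ± 0.13 for Pmvk and -0.34 ± 0.093 for Fdps (adjusted p = 0.00924 and 0.00701). The Pmvk difference from monoculture lost its call without IL13KO coculture 2 (adjusted p = 0.0555). In the WT cocultures neither passed against monoculture, though Fdps (0.21 ± 0.091, adjusted p = 0.0561) did without monoculture 1 (adjusted p = 0.0431) and by DESeq2 (adjusted p = 0.0313). After GC correction the values against monoculture were -0.76 for Pmvk and -0.75 for Fdps in the IL13KO cocultures, both called, and -0.14 and -0.18, both with turned signs and uncalled, in the WT cocultures. Of the exon bases of Fdps, 26.7% are shared with Gm43738 on the same strand, so its counts are uncertain.

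Idi1, the isomerase of isopentenyl pyrophosphate, averaged 51.7 ± 7.003 CPM in the IL13KO cocultures, 61.6 ± 2.45 CPM in the WT cocultures and 68.7 ± 9.503 CPM in the monocultures. It was lower in the IL13KO cocultures than in monoculture, with a log2 fold change of -0.41 ± 0.13 (adjusted p = 0.0135). That call was lost without IL13KO coculture 1 (adjusted p = 0.0823) and after GC correction (-0.13). Acat2, a thiolase that joins acetyl-CoA units, averaged 158 ± 9.96 CPM in the IL13KO cocultures, 187 ± 10.9 CPM in the WT cocultures and 201 ± 37.1 CPM in the monocultures. It too was lower in the IL13KO cocultures than in monoculture (-0.35 ± 0.13, adjusted p = 0.0344). Its groups overlapped, and its call was lost when any of IL13KO cocultures 1, 2 and 3 or monocultures 1 and 2 was left out, with adjusted p up to 0.139. Of the 50-base stretches of Idi1, 30.5% also occur in other genes on either strand, most of them in Gm13502 among single genes. Of those of Acat2, 45.9% do, with its relative Acat3 holding the most. The reads of both genes could therefore have been divided. Neither gene passed in the WT cocultures against monoculture, where GC correction turned the sign of Idi1 (-0.16) to 0.13, or between the cocultures.

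The enzymes from squalene to lanosterol moved apart as well. Lss (ENSMUSG00000033105, chromosome 10, 76531588 to 76557138), the cyclase that makes lanosterol, stood at 62.2, 65.5 and 68.7 CPM in the IL13KO cocultures, 104, 81.98 and 72.2 CPM in the WT cocultures and 13.5, 19.6, 20.5 and 24.1 CPM in the monocultures. Both coculture groups lay wholly above the monocultures, by 3.37-fold with IL13KO ILC2s and 4.43-fold with WT ILC2s. The log2 fold changes were 1.75 ± 0.17 (adjusted p = 4.48e-06) and 2.15 ± 0.17 (adjusted p = 4.17e-07), and after GC correction 1.07 and 1.57, both still called. The IL13KO cocultures were lower than the WT cocultures without overlap, but the log2 fold change of -0.39 ± 0.18 did not pass (adjusted p = 0.127). It passed after GC correction (adjusted p = 0.0271) and without monoculture 1 (adjusted p = 0.0383).

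Sqle (ENSMUSG00000022351, chromosome 15, 59315077 to 59331192), the epoxidase that is a rate-controlling enzyme of the later pathway, had 169, 164 and 166 CPM in the IL13KO cocultures, 198, 164 and 163 CPM in the WT cocultures and 116, 132, 136 and 149 CPM in the monocultures. The cocultures overlapped with each other and not with the monocultures. Its rises on the log2 scale were 0.32 ± 0.10 (adjusted p = 0.0165) in the IL13KO cocultures and 0.40 ± 0.10 (adjusted p = 0.00428) in the WT cocultures. After GC correction they changed sign, to -0.16 and -0.048, neither of them called. The medians of all genes were then -0.17 and -0.15, so neither value lay below its median. The IL13KO call was also lost under upper-quartile scaling (adjusted p = 0.0728). Fdft1, the synthase that joins farnesyl units into squalene, averaged 106 ± 2.64 CPM in the IL13KO cocultures, 81.1 ± 5.26 CPM in the WT cocultures and 135 ± 9.003 CPM in the monocultures. Its log2 fold changes against monoculture were -0.36 ± 0.086 with IL13KO ILC2s and -0.74 ± 0.087 with WT ILC2s (adjusted p = 0.00339 and 1.13e-05), and GC correction widened these to -1.14 and -1.46. It was higher in the IL13KO than in the WT cocultures (0.38 ± 0.092, adjusted p = 0.009502), a call lost after GC correction (adjusted p = 0.0628) and without WT coculture 3 (adjusted p = 0.0609). Of its exon bases, 18.3% overlap Ctsb on the opposite strand, and the strand setting of the counting is not given in the sources used here.

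Among the enzymes that turn lanosterol into cholesterol, the reductases Lbr and Dhcr7 rose in both cocultures. Lbr (ENSMUSG00000004880, chromosome 1, 181815335 to 181843046) is a sterol reductase and also the lamin B receptor of the inner nuclear membrane. Its level was 64.9, 68.4 and 74.4 CPM in the IL13KO cocultures, 112, 101 and 93.4 CPM in the WT cocultures and 39.9, 37.8, 36.4 and 42.4 CPM in the monocultures. None of the 3 groups overlapped. The log2 fold change was 0.82 ± 0.099 in the IL13KO cocultures against monoculture (adjusted p = 2.11e-05), 1.38 ± 0.099 in the WT cocultures (adjusted p = 1.73e-07) and -0.56 ± 0.10 between IL13KO and WT cocultures (adjusted p = 0.00206). All 3 calls stood in every alternative fit, and GC correction gave 0.91, 1.46 and -0.56.

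The summed level of markers of cycling cells, whose nuclear envelopes are rebuilt at division, followed the same order as Lbr, but single markers did not all. The 12 marker genes summed to 427 to 559 CPM in the IL13KO cocultures, 1160.0 to 1313 CPM in the WT cocultures and 320.6 to 346 CPM in the monocultures. All 12 were lower in the IL13KO than in the WT cocultures. Against monoculture 9 were higher and 1 lower in the IL13KO cocultures, and 11 were higher and 0 lower in the WT cocultures. Pcna averaged 46.08 ± 6.11 CPM in the IL13KO cocultures, 77.89 ± 7.08 CPM in the WT cocultures and 66.85 ± 6.75 CPM in the monocultures. The part of cycling cells in the difference in Lbr was not tested.

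Dhcr7 (ENSMUSG00000058454, chromosome 7, 143823145 to 143848410), the reductase of the final step to cholesterol, had 42.3, 34.4 and 37.7 CPM in the IL13KO cocultures, 67.2, 50.5 and 51.8 CPM in the WT cocultures and 17.6, 22.3, 17.1 and 18.1 CPM in the monocultures. Here too the 3 groups were fully apart, in the order monoculture, IL13KO coculture, WT coculture. Against monoculture the log2 fold changes were 1.02 ± 0.14 with IL13KO ILC2s (adjusted p = 5.84e-05) and 1.59 ± 0.14 with WT ILC2s (adjusted p = 9.45e-07), and 0.40 and 1.02 after GC correction, both called. Between IL13KO and WT cocultures the log2 fold change was -0.57 ± 0.15 (adjusted p = 0.0139), a call that was lost without IL13KO coculture 2 (adjusted p = 0.0762) or WT coculture 1 (adjusted p = 0.0609).

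Of the other 7 late enzymes, 4 were lower in the IL13KO cocultures and 5 in the WT cocultures than in monoculture. Ebp, a sterol isomerase, averaged 75.5 ± 1.65 CPM in the IL13KO cocultures, 91.6 ± 0.217 CPM in the WT cocultures and 134 ± 13.9 CPM in the monocultures. Its log2 fold changes against monoculture were -0.83 ± 0.094 in the IL13KO cocultures and -0.55 ± 0.093 in the WT cocultures (adjusted p = 1.32e-05 and 0.000205). Sc5d, a sterol desaturase, averaged 143 ± 10.6 CPM in the IL13KO cocultures, 135 ± 5.49 CPM in the WT cocultures and 195 ± 18.5 CPM in the monocultures. It was called lower in both, with log2 fold changes of -0.45 ± 0.096 in the IL13KO cocultures and -0.53 ± 0.096 in the WT cocultures, and did not pass between them (adjusted p = 0.586). Msmo1, Nsdhl and Hsd17b7 act in turn to remove methyl groups of the sterol ring. Nsdhl, a dehydrogenase, averaged 57.5 ± 4.08 CPM in the IL13KO cocultures, 62.5 ± 3.07 CPM in the WT cocultures and 81.04 ± 6.78 CPM in the monocultures. It was called lower in both, with log2 fold changes of -0.50 ± 0.098 in the IL13KO cocultures and -0.37 ± 0.098 in the WT cocultures. After GC correction the IL13KO call stood and the WT call did not (-0.20). Hsd17b7, a ketone reductase, fell with WT ILC2s (-0.91 ± 0.14, adjusted p = 8.43e-05) but did not pass with IL13KO ILC2s (-0.25 ± 0.13, adjusted p = 0.124, with 0.0217 without monoculture 1 and 0.0292 under upper-quartile scaling). It was 1.57-fold higher in the IL13KO than in the WT cocultures (adjusted p = 0.00549), with means of 88.1 ± 2.92 and 55.9 ± 9.14 CPM.

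Msmo1 and Cyp51 were lower in the IL13KO cocultures than in the WT cocultures. The demethylase Cyp51 averaged 119 ± 7.02 CPM in the IL13KO cocultures, 153 ± 12.9 CPM in the WT cocultures and 122 ± 4.95 CPM in the monocultures. Its coculture difference was -0.36 ± 0.093 (adjusted p = 0.0136), lost without IL13KO coculture 1 (adjusted p = 0.0697) or WT coculture 4 (adjusted p = 0.0636). It rose in the WT cocultures against monoculture (0.33 ± 0.086, adjusted p = 0.00444), a call lost under upper-quartile scaling (adjusted p = 0.0505). The oxidase Msmo1 averaged 173 ± 7.52 CPM in the IL13KO cocultures, 219.6 ± 5.33 CPM in the WT cocultures and 259 ± 27.3 CPM in the monocultures. It differed between the cocultures by -0.34 ± 0.098 (adjusted p = 0.0228), a call lost without IL13KO coculture 1 or 2 or WT coculture 3 or 4, with adjusted p up to 0.0912. Against monoculture its log2 fold change was -0.58 ± 0.093 in the IL13KO cocultures (adjusted p = 0.000182) and -0.24 ± 0.092 in the WT cocultures (adjusted p = 0.0388). The WT call was lost after GC correction, without the filter on low counts, in a fit of only the groups compared, and when any library other than monocultures 3 and 4 was left out, with adjusted p up to 0.113. Tm7sf2, a reductase that overlaps Lbr in function, averaged 14.4 ± 1.496 CPM in the IL13KO cocultures, 11.9 ± 1.19 CPM in the WT cocultures and 14.1 ± 2.06 CPM in the monocultures, and passed in no comparison. After GC correction it was called lower in both cocultures than in monoculture, with -0.45 in the IL13KO cocultures, a reversal of 0.029, and -0.71 in the WT cocultures. Of the exon bases of Tm7sf2, 12.1% are shared with Vps51 on the same strand. Ebp and Nsdhl did not pass between the cocultures (adjusted p = 0.0561 and 0.439), and Ebp did without monoculture 1 (adjusted p = 0.0204) or 3 (adjusted p = 0.0297) and by DESeq2 and limma-voom (adjusted p = 0.0369 and 0.0499).

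**Figure D2:**
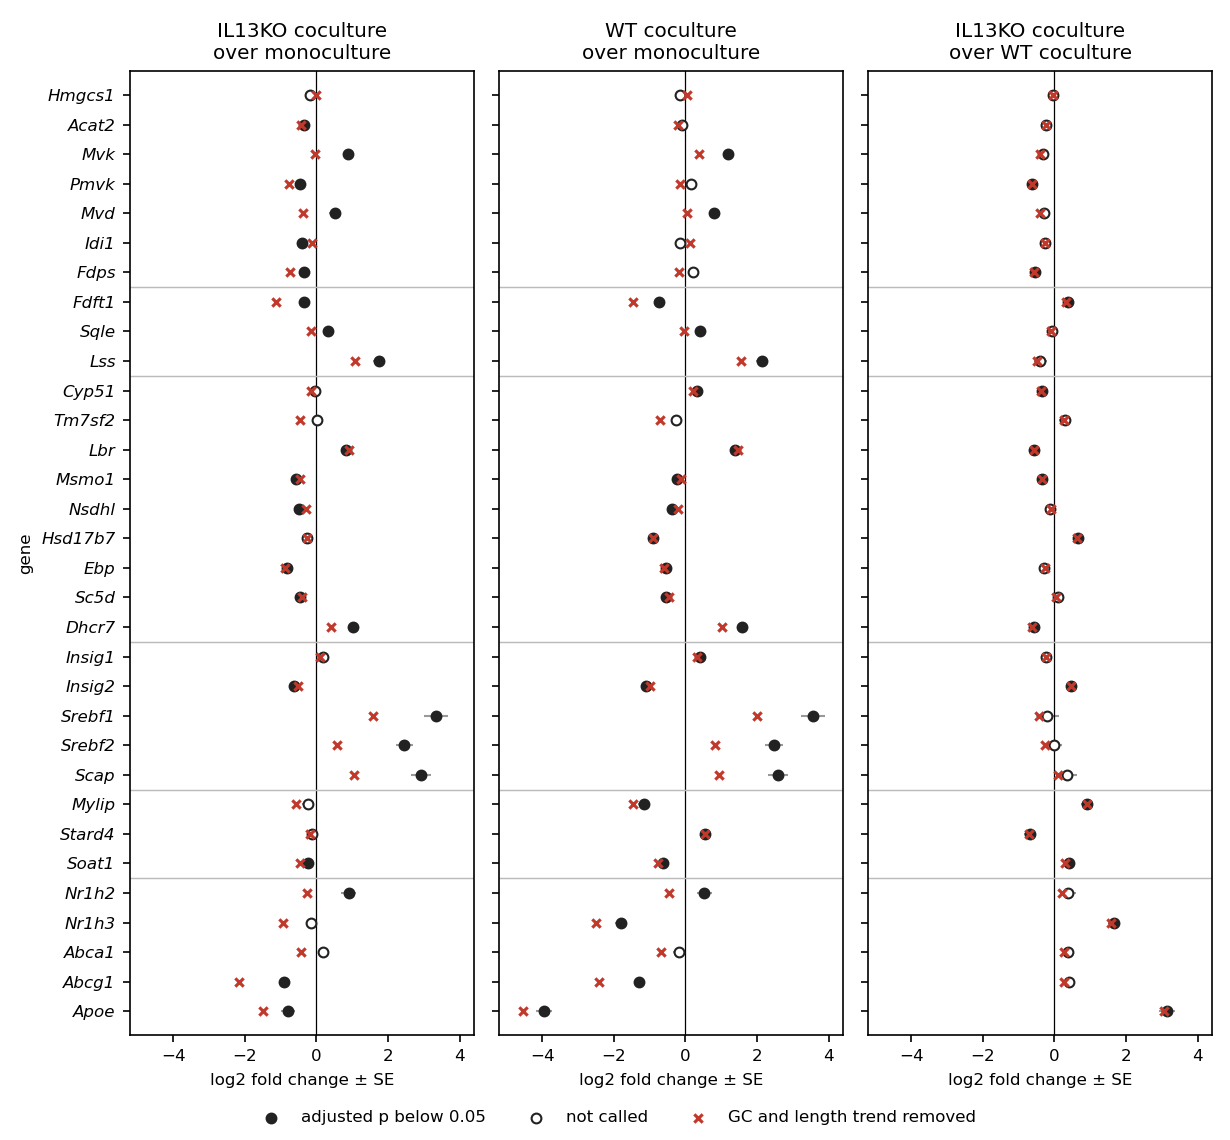
Points give the log2 fold change of each member ± SE in the 3 comparisons, filled where the adjusted p was below 0.05, and red crosses give the GC-corrected value. Crosses lie far left of the points for Srebf1, Srebf2, Scap and Abcg1 against monoculture, and close to the points between the cocultures. The signs of Mvk, Mvd, Sqle, Tm7sf2, Nr1h2 and Abca1 were reversed by the correction in the IL13KO cocultures against monoculture, and those of Sqle, Nr1h2 and the uncalled Hmgcs1, Pmvk, Idi1 and Fdps in the WT cocultures.

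The transcripts of the SREBP precursors and their escort were higher in both cocultures than in monoculture, and none of the 3 passed between the cocultures. Srebf1 (ENSMUSG00000020538, chromosome 11, 60199089 to 60222581), whose products drive fatty acid and sterol genes, had 66.01, 64.97 and 61.4 CPM in the IL13KO cocultures, 96.7, 74.7 and 49.9 CPM in the WT cocultures and 4.48, 5.48, 12.4 and 3.304 CPM in the monocultures. Every coculture library exceeded every monoculture, and the WT cocultures spread around the IL13KO cocultures. Its mean was 10.2-fold that of monoculture with IL13KO ILC2s and 11.7-fold with WT ILC2s. The log2 fold changes were 3.35 ± 0.34 (adjusted p = 5.87e-06) and 3.55 ± 0.34 (adjusted p = 1.83e-06), and -0.20 ± 0.32 between the cocultures (adjusted p = 0.697).

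Srebf2 (ENSMUSG00000022463, chromosome 15, 82147181 to 82205379), the SREBP most tied to sterol synthesis, had 62.5, 82.1 and 78.6 CPM in the IL13KO cocultures, 99.9, 80.9 and 45.3 CPM in the WT cocultures and 13.3, 13.2, 17.7 and 10.3 CPM in the monocultures. Scap (ENSMUSG00000032485, chromosome 9, 110333288 to 110384950), the escort and sterol sensor, had 39.9, 51.3 and 52.6 CPM in the IL13KO cocultures, 52.1, 38.99 and 21.6 CPM in the WT cocultures and 5.15, 6.74, 8.67 and 4.71 CPM in the monocultures. For Srebf1, Srebf2 and Scap alike, WT coculture 1 was the highest and WT coculture 4 the lowest WT library. Srebf2 rose against monoculture by 2.46 ± 0.24 with IL13KO ILC2s and 2.48 ± 0.24 with WT ILC2s, and Scap by 2.93 ± 0.28 and 2.58 ± 0.28, on the log2 scale. All 4 calls, with adjusted p of 2.19e-06 to 5.05e-06, stood when each library was left out. Neither passed between the cocultures (adjusted p = 0.967 and 0.3904), where the log2 fold change was -0.019 ± 0.24 for Srebf2 and 0.35 ± 0.27 for Scap. Without WT coculture 1 the sign between the cocultures turned, to 0.039 for Srebf1 and 0.24 for Srebf2, both uncalled.

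The size of these rises depended on GC correction. Transcripts of Srebf1, Srebf2 and Scap hold 58.4, 57.9 and 59.1% GC, near the upper end of the members' range of 41.9 to 60.6%. After the correction, the log2 fold change of Srebf1 was 1.58 with IL13KO ILC2s and 2.01 with WT ILC2s. That of Srebf2 was 0.56 with IL13KO ILC2s and 0.82 with WT ILC2s, and that of Scap 1.04 and 0.93 in the same order. All 6 values still passed. Scap shares 13.2% of its exon bases with 5830462I19Rik on the opposite strand.

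The retention factors Insig1 and Insig2 did not move as the precursors did. Insig2 (ENSMUSG00000003721, chromosome 1, 121304353 to 121332589) had 91.4, 82.3 and 77.1 CPM in the IL13KO cocultures, 57.9, 64.3 and 60.04 CPM in the WT cocultures and 144, 124, 109.5 and 139 CPM in the monocultures. None of its groups overlapped, with the WT cocultures lowest. It fell against monoculture, with log2 fold changes of -0.63 ± 0.11 in the IL13KO cocultures (adjusted p = 0.0003403) and -1.09 ± 0.11 in the WT cocultures (adjusted p = 3.16e-06). It was higher in the IL13KO than in the WT cocultures, by a log2 fold change of 0.46 ± 0.12 (adjusted p = 0.0119), and that call was lost without IL13KO coculture 1 (adjusted p = 0.0647). Insig1 (ENSMUSG00000045294, chromosome 5, 28071363 to 28078662), itself a known SREBP target, had 116, 123 and 117 CPM in the IL13KO cocultures, 158, 144 and 116 CPM in the WT cocultures and 102, 120.0, 99.5 and 96.2 CPM in the monocultures. Every pair of groups overlapped. It rose in the WT cocultures against monoculture (0.42 ± 0.11, adjusted p = 0.005895), and did not pass in the IL13KO cocultures (0.18 ± 0.11, adjusted p = 0.179) or between the cocultures (-0.23 ± 0.12, adjusted p = 0.1903).

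**Figure D3:**
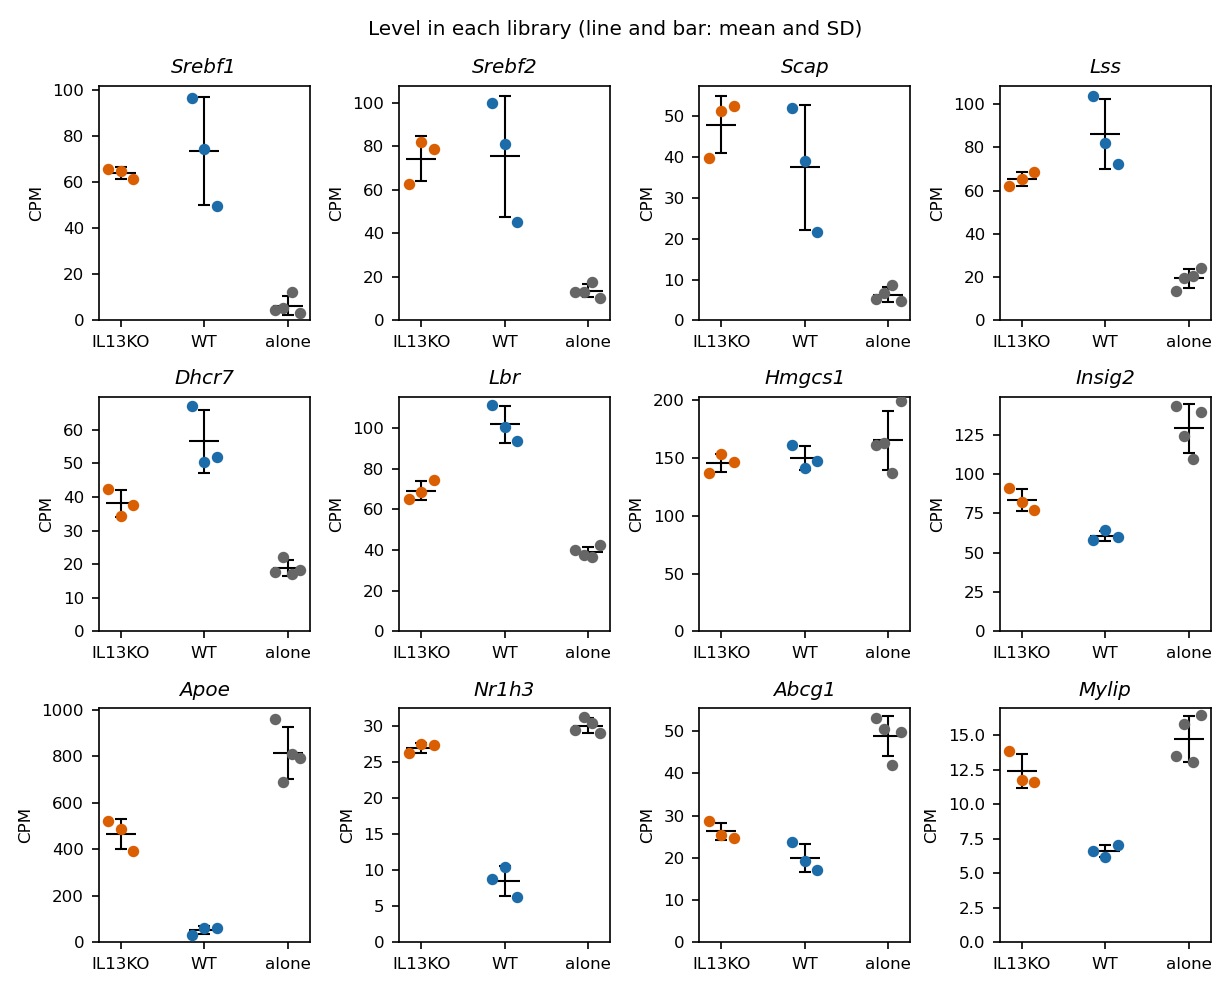
CPM of 12 members in each library, with IL13KO cocultures (orange), WT cocultures (blue) and monocultures (grey, labelled alone) from left to right. Lines and bars give the group mean and SD. Apoe and Nr1h3 of the IL13KO cocultures lie far above the WT cocultures, and Srebf1, Srebf2 and Scap of both cocultures lie above all 4 monocultures.

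Genes of uptake, carriage and storage separated the cocultures in each of the 3 cases. Mylip (ENSMUSG00000038175, chromosome 13, 45389742 to 45412022) is an LXR-induced ubiquitin ligase that removes lipoprotein receptors. It had 13.8, 11.8 and 11.6 CPM in the IL13KO cocultures, 6.596, 6.199 and 7.06 CPM in the WT cocultures and 13.5, 15.8, 13.1 and 16.5 CPM in the monocultures. The WT cocultures lay below all other libraries, while the IL13KO cocultures overlapped with monoculture. Mylip was 1.87-fold higher in the IL13KO than in the WT cocultures (0.91 ± 0.16 on the log2 scale, adjusted p = 0.00163). Against monoculture it fell with WT ILC2s (-1.15 ± 0.16, adjusted p = 3.68e-05) and did not pass with IL13KO ILC2s (-0.25 ± 0.15, adjusted p = 0.1796), although it did after GC correction (-0.57, adjusted p = 0.00505).

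Stard4 (ENSMUSG00000024378, chromosome 18, 33199355 to 33213862), a cytosolic sterol carrier known to respond to SREBPs, had the opposite pattern. Its level was 34.7, 34.7 and 37.4 CPM in the IL13KO cocultures, 60.98, 60.1 and 50.7 CPM in the WT cocultures and 46.4, 43.9, 32.2 and 32.8 CPM in the monocultures. The WT cocultures were above all other libraries. It was lower in the IL13KO than in the WT cocultures, with a log2 fold change of -0.69 ± 0.15 (adjusted p = 0.00536), and higher in the WT cocultures than in monoculture, with 0.56 ± 0.14 (adjusted p = 0.00354). The IL13KO cocultures did not differ from monoculture past the threshold (-0.13 ± 0.14, adjusted p = 0.463).

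Soat1, the enzyme that esterifies cholesterol for storage, averaged 211 ± 15.2 CPM in the IL13KO cocultures, 160.4 ± 10.9 CPM in the WT cocultures and 248 ± 14.96 CPM in the monocultures. It was higher in the IL13KO than in the WT cocultures (0.39 ± 0.093, adjusted p = 0.00844), a call lost without IL13KO coculture 1 (adjusted p = 0.0526). With WT ILC2s its log2 fold change against monoculture was -0.63 ± 0.088 (adjusted p = 4.62e-05). With IL13KO ILC2s the value of -0.24 ± 0.087 (adjusted p = 0.0349) came from overlapping groups, and its call was lost without the filter on low counts (adjusted p = 0.0712) and without IL13KO coculture 2 or 3 or monoculture 2 or 4, with adjusted p up to 0.1502.

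The largest difference between the cocultures among the 32 genes was in Apoe (ENSMUSG00000002985, chromosome 7, 19696109 to 19699188), which encodes apolipoprotein E, the lipid carrier that accepts exported cholesterol. Apoe had 521, 487 and 394 CPM in the IL13KO cocultures, 33.5, 63.2 and 62.8 CPM in the WT cocultures and 961, 689, 811 and 793 CPM in the monocultures. No groups overlapped. Its level was 8.79-fold higher in the IL13KO than in the WT cocultures (3.14 ± 0.22 on the log2 scale, adjusted p = 1.51e-06), and that log2 value was 2.89 to 3.27 when single libraries were left out. It was 15.3-fold lower in the WT cocultures than in monoculture (-3.94 ± 0.22, adjusted p = 2.87e-08). In the IL13KO cocultures it was 1.74-fold lower than in monoculture (-0.80 ± 0.19, adjusted p = 0.00334). GC correction gave 3.06 between the cocultures, -4.55 for the WT cocultures and -1.49 for the IL13KO cocultures against monoculture. Per kilobase of transcript, Apoe stood at 332 CPM in the IL13KO cocultures, 37.8 CPM in the WT cocultures and 578 CPM in the monocultures, the highest level of any member in the IL13KO cocultures and in monoculture. In the WT cocultures, Acat2, Msmo1, Ebp, Nr1h2, Insig1, Hmgcs1, Sqle and Cyp51 stood above it on that scale.

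Nr1h3 (ENSMUSG00000002108, chromosome 2, 91184061 to 91202834), which encodes LXRα, followed Apoe. It had 26.2, 27.5 and 27.3 CPM in the IL13KO cocultures, 8.84, 10.5 and 6.36 CPM in the WT cocultures and 29.5, 31.3, 30.4 and 28.97 CPM in the monocultures. The WT cocultures were far below both other groups, and the IL13KO cocultures lay just under the monocultures. Its level was 3.15-fold higher in the IL13KO than in the WT cocultures (1.65 ± 0.17, adjusted p = 1.90e-05) and 3.499-fold lower in the WT cocultures than in monoculture (-1.81 ± 0.16, adjusted p = 9.97e-07). The IL13KO cocultures did not pass against monoculture (-0.15 ± 0.15, adjusted p = 0.396), but did after GC correction (-0.93, adjusted p = 0.000277). The corrected values were 1.57 between the cocultures and -2.50 for the WT cocultures against monoculture.

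Summed levels of macrophage and of adipocyte markers were in the same order as Apoe and Nr1h3, which both cell types express, but not every single marker of each list was. The 7 macrophage markers held by the count table summed to 36.1 to 38.3 CPM in the IL13KO cocultures, 15.3 to 17.9 CPM in the WT cocultures and 59.4 to 67.6 CPM in the monocultures. Lyz2 made up most of that sum, with 23.8 ± 1.23 CPM in the IL13KO cocultures, 2.85 ± 0.581 CPM in the WT cocultures and 53.4 ± 1.97 CPM in the monocultures. Csf1r, the macrophage growth factor receptor, had another order, with 12.2 ± 0.945 CPM in the IL13KO cocultures, 12.9 ± 1.88 CPM in the WT cocultures and 8.999 ± 1.73 CPM in the monocultures. Of 3 macrophage markers tested, 1 was higher and 0 were lower in the IL13KO than in the WT cocultures. Against monoculture 0 were higher and 1 lower in the IL13KO cocultures, and 1 was higher and 2 lower in the WT cocultures. The defining marker Adgre1 had at most 1 read in an IL13KO coculture, at most 4 reads in a WT coculture and 0 in each monoculture, and Cd68 averaged under 1 CPM in every group. The 6 adipocyte markers summed to 94.7 to 103.7 CPM in the IL13KO cocultures, 38.8 to 46.3 CPM in the WT cocultures and 155.1 to 197.9 CPM in the monocultures, mostly from Pparg and Fabp4. The lipase Lipe had another order, with 10.2 ± 1.99 CPM in the IL13KO cocultures, 6.32 ± 0.804 CPM in the WT cocultures and 1.41 ± 0.958 CPM in the monocultures. Of 5 adipocyte markers tested, 3 were higher and 0 lower in the IL13KO than in the WT cocultures. Against monoculture 1 was higher and 3 lower in the IL13KO cocultures, and 1 was higher and 4 lower in the WT cocultures. The defining marker Adipoq averaged 1.70 ± 0.657 CPM in the IL13KO cocultures, 0.444 ± 0.422 CPM in the WT cocultures and 3.71 ± 1.66 CPM in the monocultures.

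Markers of mural and stellate cells also differed between the cocultures. The 7 markers summed to 102.6 to 138.4 CPM in the IL13KO cocultures, 34.0 to 34.6 CPM in the WT cocultures and 87.6 to 98.7 CPM in the monocultures. Rgs5, a pericyte marker, averaged 57.7 ± 10.6 CPM in the IL13KO cocultures, 8.54 ± 1.63 CPM in the WT cocultures and 51.4 ± 12.3 CPM in the monocultures. Of 6 tested, 5 were higher and 0 lower in the IL13KO than in the WT cocultures. Against monoculture 2 were higher and 0 lower in the IL13KO cocultures, and 0 were higher and 4 lower in the WT cocultures. The part of macrophages, adipocytes and mural or stellate cells in the values of Apoe and Nr1h3 was not tested.

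The exporters themselves differed less. Abcg1 (ENSMUSG00000024030, chromosome 17, 31057675 to 31117988), which passes cholesterol to mature lipoproteins, had 28.6, 25.5 and 24.8 CPM in the IL13KO cocultures, 23.7, 19.2 and 17.1 CPM in the WT cocultures and 53.04, 50.5, 41.95 and 49.8 CPM in the monocultures. The cocultures were apart from the monocultures and, narrowly, from each other. Abcg1 fell against monoculture, with log2 fold changes of -0.89 ± 0.14 in the IL13KO cocultures (adjusted p = 0.000126) and -1.29 ± 0.14 in the WT cocultures (adjusted p = 4.86e-06), and -2.17 and -2.42 after GC correction. The difference between IL13KO and WT cocultures was 0.39 ± 0.14 (adjusted p = 0.0651). It passed without WT coculture 1 (adjusted p = 0.0219), monoculture 1 (adjusted p = 0.0492) or monoculture 3 (adjusted p = 0.0463).

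Abca1 (ENSMUSG00000015243, chromosome 4, 53030787 to 53159895), which loads cholesterol onto apolipoproteins, had 23.1, 22.5 and 20.9 CPM in the IL13KO cocultures, 20.4, 14.4 and 16.3 CPM in the WT cocultures and 22.97, 17.3, 20.1 and 17.2 CPM in the monocultures. Both cocultures overlapped with the monocultures, and every IL13KO coculture was above every WT coculture. Abca1 passed in none of the comparisons, with log2 fold changes of 0.20 ± 0.16 and -0.18 ± 0.16 against monoculture and 0.38 ± 0.17 between the cocultures (adjusted p = 0.303, 0.3297 and 0.122). After GC correction it was called lower than monoculture in both cocultures, at -0.42 with IL13KO ILC2s, a reversal, and -0.68 with WT ILC2s. Nr1h2, which encodes LXRβ, averaged 134 ± 12.03 CPM in the IL13KO cocultures, 103 ± 7.97 CPM in the WT cocultures and 71.8 ± 24.5 CPM in the monocultures. It was called higher in both cocultures against monoculture (0.90 ± 0.21 and 0.52 ± 0.21), but GC correction reversed both, to -0.25 and -0.46. The WT call was lost under upper-quartile scaling (adjusted p = 0.0985), in a fit of only the groups compared (adjusted p = 0.0648) and when any library other than monocultures 1 and 3 was left out, with adjusted p up to 0.126. Between the cocultures Nr1h2 did not pass (adjusted p = 0.242), and without monoculture 1 its adjusted p was 0.0493.

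Setting synthesis against efflux, the medians of the arms had opposite signs between the cocultures. Of 19 synthesis enzymes, 2 were higher and 6 lower in the IL13KO than in the WT cocultures, with a median log2 fold change of -0.28. Of 5 LXR and efflux genes, 2 were higher and 0 lower, with a median of 0.39, and all 5 fold changes were positive. The median of all tested genes was 0.0042, and 11.7% of them were called in each direction. Of 5 SREBP regulators, 1 was higher and 0 were lower. Against monoculture, 6 synthesis enzymes were higher and 9 lower in the IL13KO cocultures, with a median of -0.25, and 7 were higher and 6 lower in the WT cocultures, with a median of -0.10. LXR and efflux genes had 1 higher and 2 lower in the IL13KO cocultures, with a median of -0.15, and 1 higher and 3 lower in the WT cocultures, with a median of -1.29. After GC correction, synthesis enzymes had 3 higher and 10 lower in the IL13KO cocultures (median -0.30) and 5 higher and 5 lower in the WT cocultures (median -0.11) against monoculture. LXR and efflux genes then had 0 higher and 4 lower in the IL13KO cocultures (median -0.93) and 0 higher and 5 lower in the WT cocultures (median -2.42). Between IL13KO and WT cocultures, synthesis then had 1 higher and 9 lower (median -0.26), and LXR and efflux 2 higher and 0 lower (median 0.26). The medians of all tested genes against monoculture, uncorrected, were 0.0017 in the IL13KO cocultures and 0.015 in the WT cocultures. Of these genes, 30.1% were called higher and 27.2% lower in the IL13KO cocultures, and 32.8% and 29.7% in the WT cocultures. After GC correction the shares were 18.1% and 31.4% in the IL13KO cocultures and 24.3% and 35.1% in the WT cocultures. Between IL13KO and WT cocultures they were then 12.4% higher and 13.7% lower. The WT comparison shares its monocultures with the IL13KO comparison, so they are set side by side and not correlated. Without monoculture 1 the synthesis median of the WT cocultures was 0.0011, a reversal of sign.

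Library by library, the arms separated the groups more plainly for efflux than for synthesis. Mean log2 CPM of the 19 enzymes, relative to the monoculture mean, was -0.0058, 0.043 and 0.077 in the IL13KO cocultures, 0.31, 0.17 and 0.20 in the WT cocultures, and between -0.067 and 0.073 in monoculture. The WT cocultures lay above all other libraries, and the IL13KO cocultures overlapped with the monocultures. This mean was above 0 in all 3 WT cocultures and in 2 of 3 IL13KO cocultures where the median fold changes of the enzymes were negative. For the 5 LXR and efflux genes the mean was -0.045, -0.12 and -0.23 in the IL13KO cocultures, -1.30, -1.27 and -1.40 in the WT cocultures, and between -0.057 and 0.089 in monoculture. The WT cocultures were apart from all other libraries, and Apoe and Nr1h3 had the lowest of the 5 fold changes of the WT cocultures against monoculture. In the IL13KO cocultures the mean joined log2 fold changes of 0.90 for Nr1h2 and 0.20 for Abca1 with -0.15 for Nr1h3, -0.80 for Apoe and -0.89 for Abcg1. These means are not GC-corrected. After that correction 4 of the 5 were lower in the IL13KO cocultures than in monoculture, with a median of -0.93.

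**Figure D4:**
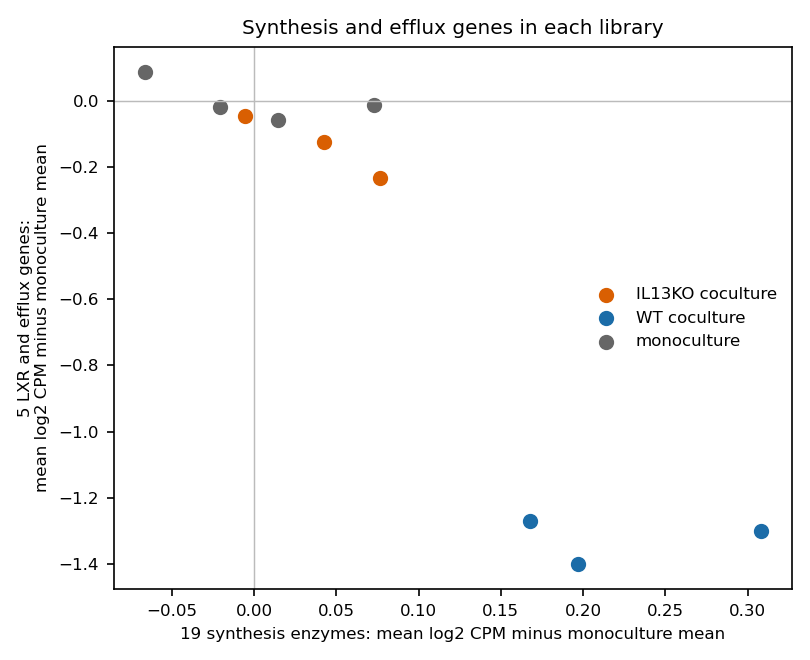
Each point is a library. The horizontal axis gives the mean log2 CPM of the 19 synthesis enzymes and the vertical axis that of the 5 LXR and efflux genes, both relative to the monoculture mean. The WT cocultures lie at the lower right, below -1.2 on the vertical axis, while the IL13KO cocultures lie near the monocultures. The values are not GC-corrected, and the vertical position of the IL13KO cocultures averages higher Nr1h2 with lower Abcg1 and Apoe.

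Genes of the surrounding pathway that are not members were read from 8 further lists. Their counts stand beside the shares of all tested genes. Against monoculture 30.1% were higher and 27.2% lower in the IL13KO cocultures, and 32.8% and 29.7% in the WT cocultures. Between the cocultures 11.7% were called in each direction. After GC correction the shares against monoculture were 18.1% higher and 31.4% lower with IL13KO ILC2s, and 24.3% and 35.1% with WT ILC2s. Of 11 fatty acid synthesis genes, known targets of SREBP-1, 10 were higher and 0 lower in the IL13KO cocultures than in monoculture, and 9 were higher and 1 lower in the WT cocultures. After GC correction 7 and 10 were higher and 0 lower. The desaturase Scd2 averaged 239.7 ± 31.1 CPM in the IL13KO cocultures, 559 ± 102 CPM in the WT cocultures and 70.9 ± 12.7 CPM in the monocultures. Between the cocultures 0 of these 11 were higher and 3 lower with IL13KO ILC2s, namely Scd2 (-1.22 ± 0.16, adjusted p = 0.000168), the elongase Elovl6 (-0.90 ± 0.26, adjusted p = 0.0257) and the desaturase Fads2 (-0.59 ± 0.17, adjusted p = 0.0209). The call of Elovl6 was lost when any of the 6 coculture libraries was left out (adjusted p up to 0.112). That of Fads2 was lost when any IL13KO coculture or WT coculture 1 was left out (adjusted p up to 0.0911). Of 7 genes of SREBP processing and sterol-regulated ligases, 4 were higher and 1 lower in the IL13KO cocultures, and 5 were higher and 1 lower in the WT cocultures, than in monoculture. After GC correction 4 and 3 were higher and 0 lower. Mbtps1, the protease that first cleaves the SREBPs, had log2 fold changes of 1.58 ± 0.14 in the IL13KO cocultures and 1.59 ± 0.14 in the WT cocultures, and 0.67 and 0.80 after GC correction. Sec24d, a coat protein of vesicles leaving the endoplasmic reticulum, averaged 257 ± 11.1 CPM in the IL13KO cocultures, 307 ± 35.6 CPM in the WT cocultures and 79.4 ± 16.3 CPM in the monocultures. None of the 7 passed between the cocultures.

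The other LXR partners and targets followed Apoe in part. Of 10 tested, 5 were higher and 1 lower in the IL13KO than in the WT cocultures. Smpdl3a, a phosphodiesterase reported as an LXR target in human macrophages, averaged 55.2 ± 7.77 CPM in the IL13KO cocultures, 12.2 ± 1.33 CPM in the WT cocultures and 162 ± 13.2 CPM in the monocultures. Its log2 fold change between IL13KO and WT cocultures was 2.17 ± 0.13 (adjusted p = 4.86e-07). Lipoprotein lipase, Lpl, was higher by 1.25 ± 0.13 (adjusted p = 3.27e-05) and the apolipoprotein Apoc1 by 2.31 ± 0.25 (adjusted p = 3.43e-05) in the IL13KO than in the WT cocultures. Against monoculture, 4 of the 10 were higher and 3 lower in the IL13KO cocultures, and 3 were higher and 5 lower in the WT cocultures. After GC correction these were 2 higher and 6 lower, and 2 higher and 7 lower. Lpcat3, which remodels phospholipids and is also an LXR target, rose in both, with log2 fold changes of 0.76 ± 0.11 in the IL13KO cocultures and 1.56 ± 0.11 in the WT cocultures. Of 5 oxysterol enzymes, 2 were higher and 0 lower in the IL13KO than in the WT cocultures, namely the hydroxylases Cyp7b1 (0.92 ± 0.15, adjusted p = 0.000825) and Cyp27a1 (2.19 ± 0.66, adjusted p = 0.0288). Cyp27a1 averaged 2.10 ± 0.246 CPM in the IL13KO cocultures and 0.463 ± 0.269 CPM in the WT cocultures, and its call was lost when any coculture library other than WT coculture 4 was left out (adjusted p up to 0.104). In the WT cocultures 4 of the 5 were lower than in monoculture, and in the IL13KO cocultures 0 passed.

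Uptake and carriage beyond the members gave mixed results. Of 9 genes of lipoprotein uptake and lysosomal exit, 2 were higher and 3 lower in the IL13KO than in the WT cocultures. The lipoprotein receptor Scarb1 averaged 34.9 ± 4.15 CPM in the IL13KO cocultures, 70.5 ± 14.9 CPM in the WT cocultures and 4.77 ± 1.404 CPM in the monocultures, and was lower in the IL13KO than in the WT cocultures, with a log2 fold change of -1.01 ± 0.20 (adjusted p = 0.00329). Vldlr was also lower there (-0.67 ± 0.11, adjusted p = 0.000808). Against monoculture this list had 3 higher and 4 lower in the IL13KO cocultures and 4 higher and 4 lower in the WT cocultures, and after GC correction 2 higher and 5 lower and 2 higher and 4 lower. Of 8 sterol carriers, 1 was higher and 0 lower in the IL13KO than in the WT cocultures, namely Osbpl9 (0.35 ± 0.093, adjusted p = 0.0165), whose call was lost without IL13KO coculture 1 or 3 or WT coculture 3 (adjusted p up to 0.0733). Against monoculture, 2 carriers were higher and 3 lower in the IL13KO cocultures, and 2 were higher and 4 lower in the WT cocultures. Of 7 genes of the isoprenoid and dolichol branches, 2 were higher and 1 lower in the IL13KO than in the WT cocultures. The lower one was Pdss1 (-1.25 ± 0.20, adjusted p = 0.000617), which makes the side chain of ubiquinone and averaged 7.43 ± 0.737 CPM in the IL13KO cocultures and 17.6 ± 2.28 CPM in the WT cocultures. Of 6 genes of electron supply to the sterol enzymes, 1 was higher, the reductase Cyb5r3 (0.54 ± 0.10, adjusted p = 0.00207), and 0 were lower. Against monoculture, the isoprenoid list had 3 higher and 1 lower in the IL13KO cocultures and 4 higher and 1 lower in the WT cocultures, which GC correction changed to 2 higher and 0 lower and to 2 higher and 1 lower. The electron supply list had 3 higher and 1 lower in the IL13KO cocultures and 4 higher and 2 lower in the WT cocultures, which GC correction changed to 1 higher and 2 lower and to 3 higher and 3 lower. Por, the reductase that feeds electrons to Cyp51 and Sqle, was among those higher in the IL13KO cocultures (1.35 ± 0.24), with 0.030 after GC correction.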

How the data were processed

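Bulk RNA was sequenced as paired 50 nt reads from a low-input kit, per the labels. Per the submitters' processing notes, STAR 2.7.7a and Salmon 1.6.0 were used with the build GRCm38.p6, besides Trimmomatic 0.39, FastQC 0.11.9, DESeq2 and Picard. The counting tool, its annotation and its strand setting are not given in the sources used here. The authors deposited whole-number counts per Ensembl gene for 22731 genes. A normalised table was not used. Total counts ranged from 10710410 to 22087459. The GENCODE annotation of that build gave symbols, positions, transcript length and GC content, and RefSeq the promoter windows.

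Genes were kept by filterByExpr, which left 16344. All 10 libraries entered 1 quasi-likelihood fit of edgeR 4.0.16 in R 4.3.3 after TMM normalisation, each group having its own coefficient. Calls were made below 0.05 after Benjamini-Hochberg adjustment over all tested genes. A prior count of 2 entered the log2 CPM of the GC and length trends and of the replicate correlations. The log2 CPM of the figures and of the means per library did not use it. The procedure was tested on simulated data.

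Members and lists were chosen with earlier results of these data known. All 32 members are named, with values in every library for those at least doubled or halved with a call, and for Hmgcs1, Sqle, Insig1, Srebf1, Srebf2, Stard4, Apoe, Abca1 and Abcg1. Of each further list, genes were named from the 3 with the smallest adjusted p per comparison. Alternatives were DESeq2 1.42.0 size factors, upper-quartile scaling, no filter, a filter of 1 CPM in 3 libraries, DESeq2, limma-voom (limma 3.58.1), fits of only the groups compared, removal of each library's loess trend (span 0.4) with GC content and length, a replicate block, and leaving out each library.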

Additional observations from a re-analysis of the deposited data

How the results depend on the processing

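Of 1792 values of single members under the alternatives, 1695 kept their call or stayed uncalled without a called reversal, 61 lost the call, 28 gained it and 8 reversed. All 8, called before or after, came with the GC and length trend removed: in the IL13KO cocultures against monoculture Mvk (-0.033), Mvd (-0.38), Sqle (-0.16), Tm7sf2 (-0.45), Nr1h2 (-0.25) and Abca1 (-0.42), and in the WT cocultures Sqle (-0.048) and Nr1h2 (-0.46). The medians of all genes were then -0.17 and -0.15, with the values of Mvk and Sqle above them and the rest below. Removing that trend gave 6 members higher in the IL13KO cocultures against monoculture. It moved the synthesis median there to -0.30 and the efflux median to -0.93, the efflux median to -2.42 in the WT cocultures and to 0.26 between the cocultures. Upper-quartile scaling moved the median of all genes to -0.10 and -0.11 in the IL13KO and WT cocultures against monoculture and gave -0.35 and -0.26 for synthesis and efflux in the IL13KO cocultures, and -0.23 for synthesis in the WT cocultures. Fitting only the groups compared gave 11 members lower between the cocultures, with 18.1% of all genes lower, against 11.7% when all groups were fitted. Leaving out single libraries, an alternative added for the medians after the data were seen, gave synthesis medians of -0.27 to -0.20 in the IL13KO cocultures and -0.21 to 0.0011 in the WT cocultures against monoculture, with the reversal of 0.0011 without monoculture 1, and an efflux median of 0.34 to 0.53 between the cocultures. No called value changed direction with DESeq2 or limma-voom. Replicate numbers 1 to 3 of the IL13KO cocultures and monocultures did not deviate together (correlations of 0.0053, -0.057 and -0.051). With these numbers as a replicate block, 9 members were higher and 8 lower, with 26% and 20.7% of all genes. The same 6 libraries without the block, also added after the data were seen, gave 9 and 10, with 28% and 24.4%. The members no longer called under the block were Mvd, Acat2, Pmvk, Idi1, Fdps and Soat1. Of these, Mvd, Acat2, Idi1 and Soat1 were not called in those 6 libraries without it either. No paired analysis was possible for the WT cocultures because their columns carry the numbers 1, 3 and 4 and their titles 1 to 3. Depth limited no member, as the lowest count was 47 reads. The cause of these changes was not tested.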
